A study of Mus musculus with 6 samples.

Results

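The genes described are 9 that red blood cells of the mouse embryo use: the embryonic globin genes Hba-x, Hbb-y and Hbb-bh1, and Alas2, Klf1, Gata1, Hemgn, Epor and Slc4a1. They were taken by name, with every probe set that the platform annotation gives to a single one of these symbols, which yielded 15 of the 45037 non-control probe sets and 9 of 18193 annotated genes. The arrays carried ventricle RNA of mouse embryos at E11.5 on the 129SvEv background. In 3 of them, named knockout 1, 26 and 66 after their titles, skNAC, the long muscle-specific product of Naca, had been deleted by gene targeting, and in the other 3, named wild-type 13, 23 and 57, the RNA came from wild-type littermates. The labels place the death of the knockout embryos by E12.5. They do not say how many hearts made up a sample or whether the heart chambers were rinsed of blood, and the p-values measure only the spread between these samples.

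At this stage the blood in the heart consists mainly of primitive red cells, nucleated cells that arise in the yolk sac and mature while they circulate. Each haemoglobin molecule joins alpha-type and beta-type globin chains around haem. Hba-x encodes the embryonic alpha-type zeta chain, and Hbb-bh1 and Hbb-y encode the embryonic beta-type chains beta-h1 and epsilon-y; primitive cells of the mouse shift from zeta and beta-h1 toward alpha and epsilon-y as they mature. Gata1 and Klf1 are the zinc finger factors that drive red cell genes, through GATA and CACCC motifs in the DNA. Alas2 makes the enzyme that starts haem synthesis in red cells, Slc4a1 the band 3 anion exchanger of the red cell membrane, Epor the erythropoietin receptor and Hemgn a nuclear protein of developing blood cells.

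The sequences in front of these genes are shown because Gata1 and Klf1, both among the 9, act through short motifs in such windows. RefSeq windows of 250 bases before to 50 bases after the gene start were found for 7 of the 9 genes, in the build GRCm38.p6, and none for Hbb-bh1 or Slc4a1. The 5 printed belong to the 2 globin genes, to Alas2 and Klf1, whose levels ranged widely over the arrays, and to Hemgn, which lacks CACCC. The windows of Gata1 and Epor are counted but not printed. Capitals mark GATA motifs (AGATAA with its variant AGATAG, or TGATAA with its variant TGATAG) and CACCC, each on either strand; no GATA match overlaps a CACCC match.
Hba-x (chr11:32276350-32276649, + strand): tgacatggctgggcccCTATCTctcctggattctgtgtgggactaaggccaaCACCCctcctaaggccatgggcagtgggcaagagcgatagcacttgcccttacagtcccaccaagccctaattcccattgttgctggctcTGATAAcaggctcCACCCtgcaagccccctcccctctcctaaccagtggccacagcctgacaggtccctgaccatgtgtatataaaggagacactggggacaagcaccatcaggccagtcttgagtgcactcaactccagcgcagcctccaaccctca
Hbb-y (chr7:103853158-103853457, - strand): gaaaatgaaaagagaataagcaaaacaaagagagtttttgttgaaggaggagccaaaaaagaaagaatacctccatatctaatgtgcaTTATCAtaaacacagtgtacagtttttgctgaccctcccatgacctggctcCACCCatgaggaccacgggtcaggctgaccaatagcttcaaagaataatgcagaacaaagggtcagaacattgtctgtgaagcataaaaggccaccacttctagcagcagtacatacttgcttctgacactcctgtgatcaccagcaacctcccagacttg
Alas2 (chrX:150547167-150547466, + strand): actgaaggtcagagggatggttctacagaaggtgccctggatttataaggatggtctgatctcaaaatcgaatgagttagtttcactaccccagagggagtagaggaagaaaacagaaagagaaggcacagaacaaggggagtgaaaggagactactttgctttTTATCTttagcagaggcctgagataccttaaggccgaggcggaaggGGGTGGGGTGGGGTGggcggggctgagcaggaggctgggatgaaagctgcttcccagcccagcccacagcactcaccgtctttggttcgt
Klf1 (chr8:84901732-84902031, + strand): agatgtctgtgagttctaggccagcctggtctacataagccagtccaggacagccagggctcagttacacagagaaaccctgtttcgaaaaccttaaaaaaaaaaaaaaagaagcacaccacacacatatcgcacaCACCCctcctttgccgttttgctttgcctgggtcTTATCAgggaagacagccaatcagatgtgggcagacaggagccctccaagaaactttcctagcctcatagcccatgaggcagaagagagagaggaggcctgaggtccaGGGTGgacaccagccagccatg
Hemgn (chr4:46404134-46404433, - strand): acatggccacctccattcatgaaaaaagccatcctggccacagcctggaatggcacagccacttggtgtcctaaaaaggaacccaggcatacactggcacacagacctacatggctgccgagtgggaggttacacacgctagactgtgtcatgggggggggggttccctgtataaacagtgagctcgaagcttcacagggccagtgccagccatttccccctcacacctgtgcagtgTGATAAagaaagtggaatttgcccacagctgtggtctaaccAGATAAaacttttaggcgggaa
A GATA motif was found in 6 of the 7 windows, all but that of Gata1 itself, and in 29.8% of all 32851 RefSeq windows of the same length. CACCC was found in 6 of 7, all but Hemgn, against 57.5% of all windows. In the Hbb-y window a single CACCC, at bases 140 to 144, stood ahead of CCAAT at bases 168 to 172. CCAAT, searched on both strands, was found in 2 of 7 windows, against 37.4% of all. Alas2 held 3 CACCC matches on the reverse strand (GGGTG as printed) between bases 211 and 225. A match is a run of letters in these windows and was not set against binding data.

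No erythroid gene passed the test between knockout and wild-type ventricles, an adjusted p of 0.05 over all probe sets in limma. Of the 15 probe sets, 14 passed the filter on dim probe sets (a mean signal above 100.3, the median of all), at least 1 for each gene. None of the 14 passed the test, where 0% of all 22518 tested probe sets did, and their adjusted p lay between 0.976 and 0.999. At an unadjusted p under 0.05 there were 3 of the 14, all belonging to Hbb-y and higher in knockout, against 4.85% of all (2.17% higher and 2.68% lower). Of the 14, 9 were above 0 and 5 below, where 48.2% of all tested probe sets were above and 51.8% below. By gene, 5 of the 9 were above 0 and 4 below, and the median log2 difference was 0.10, beside -0.0095 over all tested probe sets. Each log2 difference is given as knockout minus wild-type, with its SE, on the scale of log2(signal + 16).

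**Figure D1:**
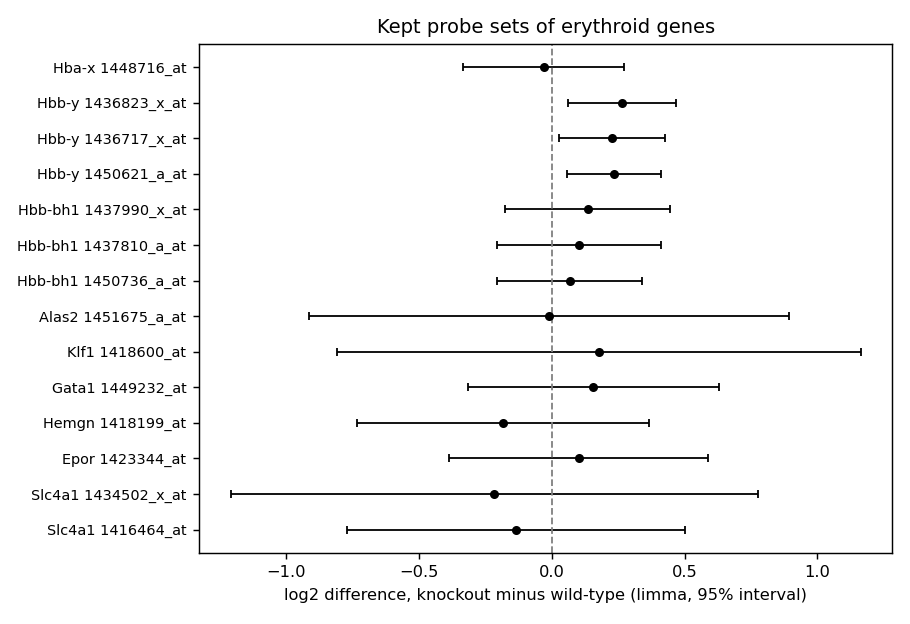
Log2 difference between knockout and wild-type ventricles with its 95% interval from limma (horizontal axis), for each of the 14 kept probe sets of the 9 erythroid genes (vertical axis). The 3 intervals of Hbb-y lie above 0, the other 11 include 0, and no probe set passed the adjustment over all probe sets.

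The levels spread widely inside each genotype. Knockout 1 gave the highest signal of the 6 arrays for 8 of the 9 genes, each at its brightest probe set, and knockout 66 the lowest for 5. Among all 11648 genes with a kept probe set, knockout 1 was highest in 17.9% and knockout 66 lowest in 24.9%. The mean log2 deviation of the 9 genes from their own 6-array averages was 0.60, -0.076 and -0.46 in knockout 1, 26 and 66, against 0.027, -0.35 and 0.26 in wild-type 13, 23 and 57. The wild-type arrays lay inside the span of the knockout arrays. In such samples fewer red cells and less of these RNAs per red cell cannot be told apart.

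The difference between genotypes in that mean, 0.044, depended on single arrays. It was -0.25 without knockout 1 and 0.28 without knockout 66, and -0.12 without wild-type 23. Centring the arrays on 14 heart muscle genes, which puts the values per muscle RNA, left it at 0.041. Quantile normalization gave -0.039.

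**Figure D2:**
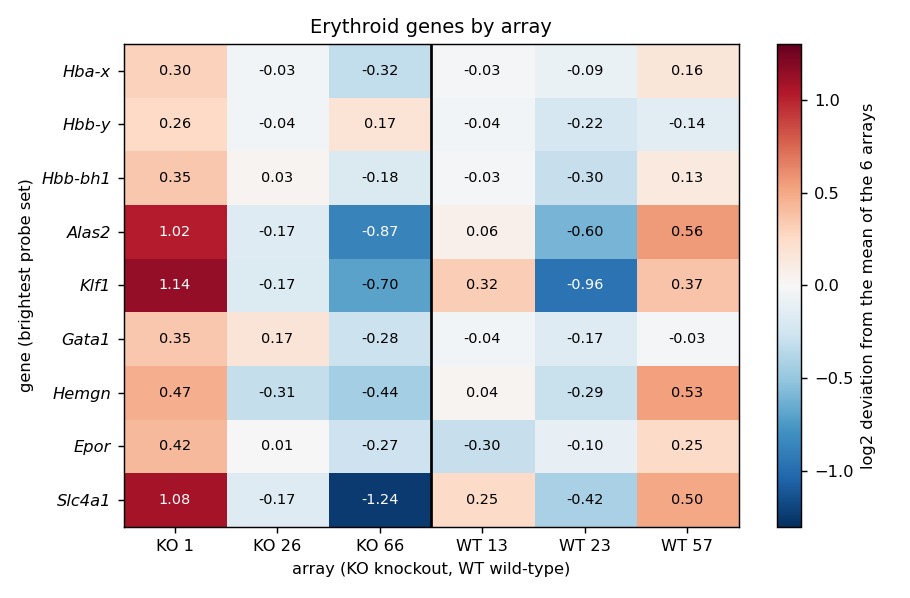
Log2 deviation of each of the 9 erythroid genes (rows, brightest probe set) from its mean over the 6 arrays (columns, knockout left of wild-type); red is higher and blue lower. Knockout 1 is at or above 0.26 in every row, and knockout 66 is below 0 in every row but Hbb-y.

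Hba-x, the zeta chain gene, had 1 probe set. It read 19681, 15591 and 12815 in knockout 1, 26 and 66, against 15615, 15029 and 17834 in wild-type 13, 23 and 57. The highest and the lowest of the 6 signals both came from knockout arrays. On the log2 scale that amounts to -0.030 ± 0.14 (95% interval -0.33 to 0.27, adjusted p = 0.996 in limma). It was -0.19 without knockout 1 and 0.12 without knockout 66.

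Hbb-bh1, the beta-h1 gene, followed nearly the same order of arrays. Its brightest probe set read 20587, 16497 and 14191 in knockout 1, 26 and 66, against 15811, 13082 and 17594 in wild-type 13, 23 and 57. The groups overlapped, with knockout 1 highest and wild-type 23 lowest. The log2 difference was 0.13 ± 0.14 (95% interval -0.17 to 0.44, adjusted p = 0.977 in limma), and the other 2 probe sets gave 0.10 and 0.067. All 3 turned below 0 after quantile normalization and without knockout 1, to -0.0076 on the brightest.

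Hbb-y, the epsilon-y gene, was the member in which the genotypes stood farthest apart for their spread. The probe set 1450621_a_at read 16359, 14697 and 14689 in knockout 1, 26 and 66, against 12980, 12510 and 13349 in wild-type 13, 23 and 57, without overlap. The brightest, 1436823_x_at, read 28679, 23263 and 26977 in knockout 1, 26 and 66, against 23296, 20531 and 21680 in wild-type 13, 23 and 57. Here wild-type 13 lay just above knockout 26, so the groups met. The third, 1436717_x_at, read 26584, 21571 and 22555 in the knockout arrays, against 20134, 19159 and 20963 in the wild-type arrays, again without overlap. Among all tested probe sets 4.96% had all knockout arrays above all wild-type arrays, and 5.56% had them all below.

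The log2 differences of the 3 Hbb-y probe sets were 0.23 ± 0.08, 0.26 ± 0.09 and 0.23 ± 0.09 in that order. Unadjusted p-values in limma were 0.0141, 0.0153 and 0.0305, and the adjusted p was 0.976 for each. They measure 1 transcript on the same RNA and are not independent. After quantile normalization the differences were 0.090, -0.024 and -0.039, so the direction on the brighter 2 depended on the scaling. That method sets a value by its rank on the array, and the part of the ranks in these shifts was not tested. The same method took Hba-x from -0.030 to -0.18. An Hbb-y probe set held the highest signal of the whole array on knockout 1 and wild-type 13, and the 3' to 5' ratio of the beta-actin control was 2.49 to 2.57 in knockout arrays and 2.05 to 2.24 in wild-type arrays; the part of either in the difference was not tested.

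**Figure D3:**
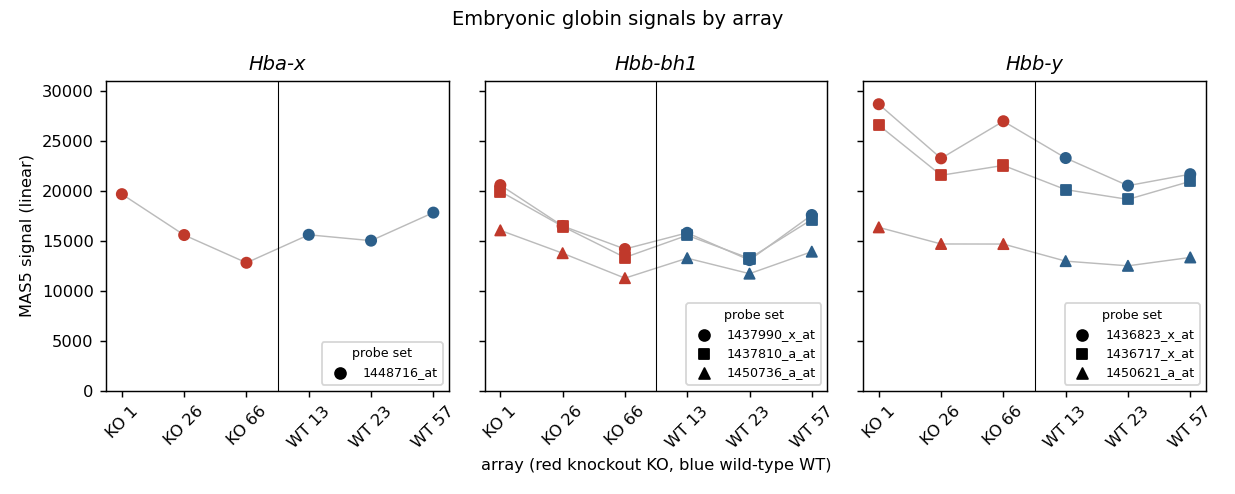
MAS5 signal on a linear scale (vertical axis) of every probe set of Hba-x, Hbb-bh1 and Hbb-y on each array (horizontal axis); red marks knockout and blue wild-type, and marker shapes are probe sets. Hba-x and Hbb-bh1 are lower on knockout 66 than on the other knockout arrays, while Hbb-y on knockout 66 is above knockout 26 on 2 probe sets and level with it on the dimmest.

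The embryonic globins parted on knockout 66. There Hbb-y, on its brightest probe set, stood 0.17 above its 6-array mean on the log2 scale. Hba-x stood 0.32 and Hbb-bh1 0.18 below their own 6-array means. On the Hbb-y probe set 1450621_a_at knockout 66 read 14689, level with knockout 26 at 14697. On 1436717_x_at it read 22555, against 21571 in knockout 26. The contrast that follows used the brightest probe set of each gene. The deviation of Hbb-y minus the mean deviation of the other 2 globins was -0.065, -0.040 and 0.42 in knockout 1, 26 and 66, against -0.0081, -0.026 and -0.28 in wild-type 13, 23 and 57. Knockout 66 was high and wild-type 57 low, with the other arrays near 0; this contrast was chosen after its values were seen and was not tested.

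Hba-a1 and Hba-a2, the alpha chain genes of later red cells that primitive cells also use, share 3 kept probe sets, which did not order the arrays alike. The probe set 1428361_x_at read 24853, 23678 and 27421 in knockout 1, 26 and 66, against 20937, 20790 and 23221 in wild-type 13, 23 and 57. The arrays did not overlap (log2 difference 0.22 ± 0.08, unadjusted p = 0.0210, adjusted p = 0.976, limma; of all tested probe sets 4.96% lay this way). A second, 1452757_s_at, also had all knockout arrays above all wild-type arrays (0.15 ± 0.08), but a dimmer one, 1417714_x_at, overlapped and gave -0.17 ± 0.24, with the arrays in the order seen for Hba-x. The probe set shared by 4 adult beta chain genes, Hbb-bt, Hbb-bs, Hbb-b2 and Hbb-b1, read 5056, 1655 and 2366 in knockout 1, 26 and 66, against 3972, 3538 and 5335 in wild-type 13, 23 and 57. Knockout 26 and 66 were the lowest 2 arrays there and knockout 1 the second highest (-0.64 ± 0.32, adjusted p = 0.976). Of 11 listed genes (adult and minor globins, and Ahsp, which encodes an alpha chain chaperone), Hba-a2 and Hbb-b2 had a kept probe set of their own, at log2 differences of -0.043 ± 0.17 and -0.052 ± 0.31. The shared probe sets cannot assign signal to single genes, and the hybridization of globin transcripts to the probes of related globins was not tested.

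Alas2 and Slc4a1, which supply haem and band 3, had wide spreads inside each genotype. Alas2 read 1283, 552 and 335 in knockout 1, 26 and 66, against 653, 406 and 926 in wild-type 13, 23 and 57. The log2 difference of -0.012 ± 0.41 had a 95% interval of -0.92 to 0.89 (adjusted p = 0.999, limma). Without knockout 66 it stood at 0.42 and without knockout 1 at -0.53. Slc4a1 on its brightest probe set, 1434502_x_at, read 4423, 1849 and 869 in knockout 1, 26 and 66, against 2469, 1547 and 2940 in wild-type 13, 23 and 57. The knockout arrays again held both ends, 5.09-fold apart, and the log2 difference was -0.22 ± 0.45 (adjusted p = 0.984), or -0.81 without knockout 1 and 0.35 without knockout 66.

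A second Slc4a1 probe set, 1416464_at, read 1459, 619 and 613 in knockout 1, 26 and 66, against 917, 737 and 1092 in wild-type 13, 23 and 57. It gave -0.13 ± 0.29 (adjusted p = 0.985). The third, 1431743_a_at, was the 1 member probe set below the filter, at 2.8 to 54.8 on all arrays, and was highest on knockout 66, where the other 2 were lowest.

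Of the transcription factors, Klf1 had the wider spread. It read 724, 282 and 191 in knockout 1, 26 and 66, against 403, 157 and 419 in wild-type 13, 23 and 57. Knockout 1 and wild-type 23 marked the ends, 4.61-fold apart. The log2 difference was 0.18 ± 0.45 (95% interval -0.81 to 1.16, adjusted p = 0.990, limma), and -0.35 without knockout 1, -0.26 without wild-type 23 and 0.57 without knockout 66. Gata1 read 244, 214 and 153 in knockout 1, 26 and 66, against 184, 166 and 184 in wild-type 13, 23 and 57. The wild-type arrays were close together and inside the knockout range (0.16 ± 0.21, adjusted p = 0.980), and the difference was 0.34 without knockout 66 and 0.022 without knockout 1.

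Hemgn was the 1 gene of the 9 with a wild-type array on top. It read 1650, 957 and 870 in knockout 1, 26 and 66, against 1217, 964 and 1721 in wild-type 13, 23 and 57, a log2 difference of -0.18 ± 0.25 (adjusted p = 0.980, limma). It became -0.46 without knockout 1 and 0.037 without wild-type 57. Epor read 344, 254 and 207 in knockout 1, 26 and 66, against 203, 235 and 304 in wild-type 13, 23 and 57. Knockout 1 was highest, wild-type 13 lowest, and the difference was 0.10 ± 0.22 (adjusted p = 0.985), or -0.083 without knockout 1 and 0.26 without knockout 66.

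The range over the 6 arrays set 3 members apart in size. It was 2.33 for Slc4a1, 2.10 for Klf1 and 1.89 for Alas2 on the log2 scale, while the median over all 11648 genes was 0.58 and 2.86% had a range of 1.8 or more. The other 6 members ranged from 0.48 in Hbb-y to 0.97 in Hemgn. Hbb-y, on its brightest probe set, also stood outside the common order of arrays. On 1450621_a_at its order was knockout 1, 26 and 66, then wild-type 57, 13 and 23, and correlations were not computed there. Pearson correlations over the 6 arrays ran from 0.57 to 0.98 (median 0.86) in the 28 pairs of the other 8 genes, and from 0.12 to 0.51 (median 0.25) between Hbb-y and each of them. Spearman coefficients had medians of 0.86 and 0.26, and without knockout 1 and 66, the arrays farthest from the median, the Pearson ranges overlapped, at -0.11 to 0.97 (median 0.72) for the other 8 genes and -0.29 to 0.79 (median 0.33) for Hbb-y. On the remaining arrays Hbb-y kept the lower median, but its range no longer lay apart from that of the other 8 genes. The genes share the same arrays, and these values are a description.

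Other red cell genes were taken from lists chosen by function, and in many of them knockout 1 was again on top. Knockout 1 was highest in 35 of 56 measured genes of 6 lists (haem synthesis, membrane and skeleton, transcription factors, iron, erythropoietin signalling and enzymes), beside 17.9% of all genes. By list the share ran from 4 of 12 in the membrane list to 9 of 10 in haem synthesis. Knockout 66 was lowest in 25 of the 56, beside 24.9% of all genes, with 1 of 12 in the membrane list and 7 of 9 among the enzymes. Between genotypes, 29 of the 56 were above 0 and 27 below, none passed the test, and 1, Lmo2, had an unadjusted p under 0.05, beside 4.85% of all probe sets.

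**Figure D4:**
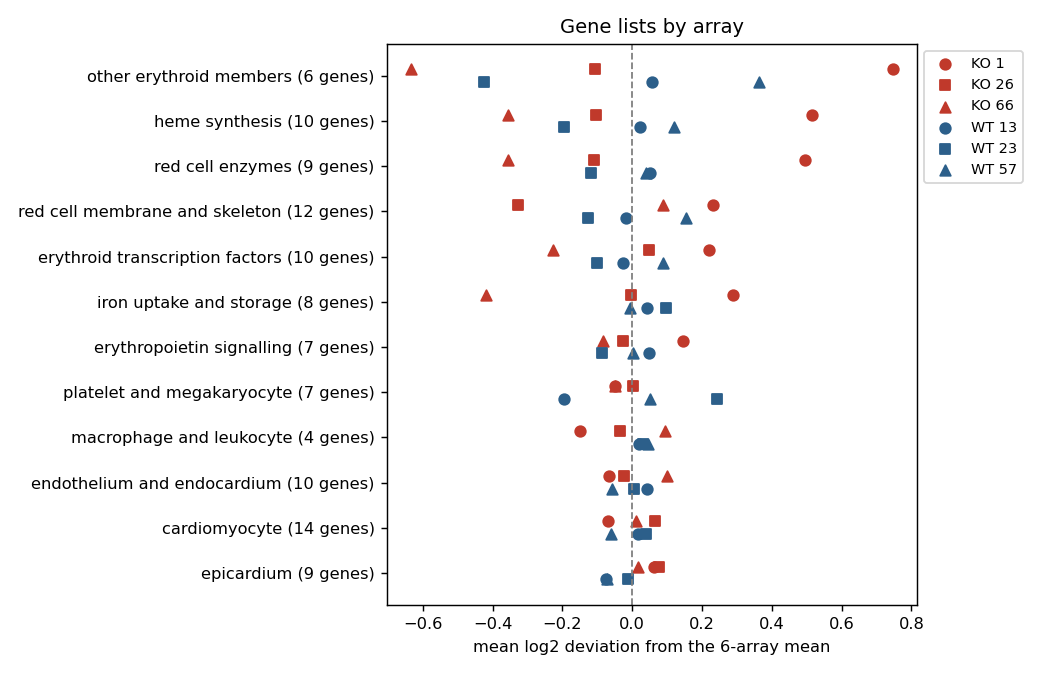
Mean log2 deviation from the 6-array mean (horizontal axis) of 12 gene lists (rows, with the number of genes measured) on each array; red markers are knockout and blue wild-type. Knockout 1 is the rightmost array in the upper 7 rows, the lists chosen for red cell functions, and lies between -0.15 and 0.064 in the lower 5.

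In haem synthesis, 10 of 11 genes were measured, 7 above 0 and 3 below, with none past the test. The median log2 difference was 0.060, or -0.19 without knockout 1, -0.037 without wild-type 23 and 0.20 without knockout 66. Knockout 1 was highest in 9 of the 10. The list stood at 0.52, -0.10 and -0.36 in knockout 1, 26 and 66, and at 0.022, -0.20 and 0.12 in wild-type 13, 23 and 57. The genes of smallest p were Uros (0.19 ± 0.19), an enzyme of the pathway, the glycine carrier gene Slc25a38 (0.19 ± 0.20), the oxidase gene Ppox (0.18 ± 0.24) and the mitochondrial iron importer gene Slc25a37. Slc25a37 read 1713, 681 and 550 in knockout 1, 26 and 66, against 951, 735 and 1407 in wild-type 13, 23 and 57 (-0.20 ± 0.36), the order of arrays seen in Alas2 but for wild-type 23, which lay above knockout 26.

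Among red cell enzymes, 9 of 12 were measured, 5 above 0 and 4 below, and none passed (median 0.012, or -0.18 without knockout 1 and 0.15 without knockout 66). Knockout 1 was highest in 8 of the 9 and knockout 66 lowest in 7. Car2, a carbonic anhydrase, read 3763, 1536 and 1144 in knockout 1, 26 and 66, against 2127, 1558 and 2751 in wild-type 13, 23 and 57. Hk1, the hexokinase of red cells, read 2186 ± 107 in knockout, against 1940 ± 18.7 in wild-type (SD, n = 3 arrays each), 0.17 ± 0.10 on the log2 scale, while its other kept probe set gave -0.48. Bpgm, the mutase that makes bisphosphoglycerate, gave 0.44 ± 0.28 on its brightest probe set and -0.14 and -0.079 on the other 2. The catalase gene Cat gave 0.16 ± 0.18 and, on a second probe set, -0.068, and the peroxidase gene Gpx1 -0.17 ± 0.21.

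Erythroid transcription factors were measured in 10 of 11 cases, 5 on each side of 0, none past the test (median 0.0070, or 0.19 without knockout 66). Lmo2, a bridging partner of Gata1, read 557, 518 and 390 in knockout 1, 26 and 66, against 398, 310 and 341 in wild-type 13, 23 and 57. The groups overlapped by 1 pair of arrays, and the log2 difference was 0.46 ± 0.17 (unadjusted p = 0.0243, adjusted p = 0.976, limma). Ldb1, another partner, gave -0.34 ± 0.29 and Runx1, a factor of blood stem cells, 0.26 ± 0.23, or -0.067 on its second probe set. Tal1, which binds with Gata1, read 841, 722 and 312 in knockout 1, 26 and 66, against 765, 596 and 705 in wild-type 13, 23 and 57 (-0.24 ± 0.30).

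Of membrane and skeleton genes 12 of 16 were measured, 4 above 0 and 8 below, with none past the test. The median was -0.046, and above 0 without knockout 26 (0.15), knockout 66 (0.024) or wild-type 57 (0.035). The adducin gene Add2 gave 0.39 ± 0.23, the ankyrin gene Ank1 0.088 ± 0.16 (-0.23 and 0.16 on its other 2 probe sets), the Kell partner gene Xk -0.28 ± 0.45 and the actin bundler gene Dmtn 0.11 ± 0.23. Knockout 26, at -0.33, was the lowest array for this list. Of iron genes 8 of 10 were measured, 4 on each side of 0, with none past the test (median 0.018, or -0.14 without knockout 1 and 0.059 without knockout 66). The transferrin receptor genes Tfr2 and Tfrc gave -0.24 ± 0.20 and 0.048 ± 0.14 (-0.23 on a second Tfrc probe set), the iron transporter gene Slc11a2 -0.61 ± 0.51 and the regulator gene Ireb2 -0.069 ± 0.12. Slc11a2 and Xk were dim, near the filter of 100.3. Slc11a2 read 22.5 on knockout 66 and up to 148.4 elsewhere, and Xk 35.2 on knockout 26 and up to 171 elsewhere. Of erythropoietin signalling genes 7 of 9 were measured, 4 above 0 and 3 below (median 0.082), with none past the test. Bcl2l1, which blocks cell death, gave 0.14 ± 0.16, Stat5b -0.26 ± 0.27, the kinase gene Pim1 0.14 ± 0.17 and the feedback inhibitor gene Socs3 0.14 ± 0.31.

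Heart muscle, endothelial and epicardial markers spanned less across the arrays than the 9 erythroid genes did. The 14 heart muscle genes were all measured and lay between -0.070 and 0.064 in knockout arrays and between -0.060 and 0.038 in wild-type arrays. In these 14 genes 10 were above 0 and 4 below. Myl2 gave 0.23 ± 0.09 (unadjusted p = 0.0307, adjusted p = 0.976, limma) and Actc1 0.15 ± 0.08. Both had all knockout arrays above all wild-type arrays, where 4.96% of all tested probe sets did. The other heart muscle genes overlapped. Next by p came Tnnt2 (-0.15 ± 0.08) and Ttn (-0.24 ± 0.17), both below 0. Their other kept probe sets lay between -0.034 and 0.086 for Tnnt2 and between -0.40 and 0.038 for Ttn. The 10 endothelial genes lay between -0.066 and 0.10 in knockout and between -0.058 and 0.042 in wild-type arrays. The 7 measured platelet genes of 11, whose RNA also comes with blood, lay between -0.050 and 0.0022 in knockout and between -0.20 and 0.24 in wild-type arrays, with wild-type 23 highest, an array low in the 9 erythroid genes. Between genotypes 1 of the 7, Treml1, was above 0 and 6 were below. The median was -0.12, or 0.022 without wild-type 23. Ppbp, a platelet chemokine gene, read 462 ± 41.9 in knockout, against 688 ± 44.2 in wild-type (-0.56 ± 0.14). Treml1, a platelet receptor gene, read 210 ± 39.2 in knockout, against 127 ± 25.3 in wild-type (0.67 ± 0.24). Both had an adjusted p of 0.976 in limma. Epicardial genes, 9 of 10 measured, 5 above 0 and 4 below, lay between -0.074 and 0.077 over the 6 arrays. The keratin gene Krt8 stood out among them by size on its brightest probe set. It read 1257 ± 315 in knockout, against 706 ± 94.2 in wild-type (0.80 ± 0.18, adjusted p = 0.976, limma). Its other kept probe sets gave 0.25 and 0.72. Of 12 macrophage and leukocyte genes 4 passed the filter. The receptor gene Csf1r read 306, 370 and 364 in knockout 1, 26 and 66, against 410, 412 and 394 in wild-type 13, 23 and 57, and the lysozyme gene Lyz2 259, 281 and 316, against 365, 326 and 332. Both had all knockout arrays below all wild-type arrays, where 5.56% of all tested probe sets did, and neither passed the test (-0.22 ± 0.15 and -0.25 ± 0.16, adjusted p = 0.976 in limma for each). Adgre1 and Ptprc overlapped, at 91.4 to 190.5 on all arrays, and both were above 0 (0.082 ± 0.19 and 0.14 ± 0.27). The summed signal of all 12 genes was 1343.6 to 1510.2 in knockout and 1380.8 to 1520.5 in wild-type arrays.

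One marker of another tissue was high on knockout 1, as the red cell genes were. Afp, a plasma protein gene of yolk sac and fetal liver, read 434.9, 65.9 and 2.9 in knockout 1, 26 and 66, against 20.9, 3.3 and 3.3 in wild-type 13, 23 and 57, on the brightest of its 5 probe sets. Knockout 1 was also highest on 3 others, 1 of which read 144.5 there and 74.7 on knockout 26, and it was lowest on 1 that stayed at or below 12 on every array. Of 10 liver genes 8 had a probe set of their own, and 1, Apoa2, passed the filter. Their summed signal was 322 to 834 in knockout and 329 to 432 in wild-type arrays. Of the 834, which was on knockout 1, Afp made up 434.9. Apart from Afp, the highest signal of a liver gene was 187.4, from Apoa2 on wild-type 13, and Apoa1 and Fgb stayed at or below 22.5. The part of such tissue in the levels of knockout 1 was not tested.

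Beyond the lists, the 8 genes whose arrays were most like the mean profile of the 3 embryonic globins, out of 6597 genes with a range of at least 0.5 on the log2 scale, had Pearson correlations of 0.97 to 0.99 over 6 arrays. They were Slc39a8, Slc20a1, Gabpb2, Chaf1b, Csf2rb, Zzz3, Ing1 and Mt2, and 46 genes exceeded 0.9. The metal-binding gene Mt2 had the widest range of them: it read 3899, 1188 and 472 in knockout 1, 26 and 66, against 1169, 389 and 1399 in wild-type 13, 23 and 57. Slc39a8, a metal transporter gene, read 1233, 849 and 751 in knockout 1, 26 and 66, against 798, 659 and 953 in wild-type 13, 23 and 57. For the mean profile of the other 6 members the nearest genes were Adck5, Ska3, Pgls, Car2, Urod, Gclm, Chaf1b and Wdr12, at 0.97 to 0.99, with 66 genes over 0.9. Car2 and Urod, which acts in haem synthesis, were among the listed red cell genes. Urod read 2247, 1433 and 1081 in knockout 1, 26 and 66, against 1648, 1384 and 1789 in wild-type 13, 23 and 57.

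As to the arrays themselves, all had a 2% trimmed mean of 250 and medians of 92.0 to 113.9. The first principal component, with 38.4% of the variance, set knockout 66 apart at 57.7 while the other arrays lay between -25.0 and 4.82. Naca, the targeted gene, gave 0.080 ± 0.08 and 0.078 ± 0.11 on its 2 probe sets (adjusted p of 0.976 and 0.980, limma). No source used here places these probe sets inside or outside the deleted exon, so Naca did not check the labels.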

How the data were processed

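Ventricle RNA (500 ng of total RNA per sample, amplified and biotin-labelled, per the labels' protocols) was measured on 6 Affymetrix whole-genome mouse arrays. The deposited table holds linear intensities, 1 per probe set and array, produced by the authors in GCOS with MAS5, per the submitters' processing notes, which name no version or scaling. Every array had a 2% trimmed mean of 250, so signals are relative to the rest of the array. Arrays hold no read depth: their number, 3 per genotype, sets the precision.

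Of 45101 probe sets, 64 were controls and 34945 others had 1 gene symbol, from GEO's platform annotation. Intensities were transformed as log2(intensity + 16). Probe sets with a mean over the 6 arrays above the median of non-control probe sets were kept (22518) and fitted with limma 3.58.1 (R 4.3.3; lmFit, then eBayes using a mean-variance trend; two-sided tests), adjusted by Benjamini-Hochberg over all of them. Gene values come from the brightest of its kept probe sets. The rule for naming took every member, up to 4 genes per list by smallest p, and the 8 genes most correlated with each mean profile, passing over predicted genes and RIKEN clones. Members and lists were chosen with earlier results of these data known. Car2, Slc25a37 and Tal1 values by array, and Afp with the other liver genes were added after their values were seen. The fit was tested on simulated data. Alternatives were pseudocounts of 1 and 64, dropping the filter or moving it to the 70th percentile, centring on medians or on heart muscle genes, quantile normalization, eBayes robust or with no trend, weighting arrays by quality, leaving out _x_at and _s_at probe sets, averaging the probe sets of a gene, and leaving out each array. Python 3.11.15 with Matplotlib 3.10.9 drew the figures.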

Additional observations from a re-analysis of the deposited data

How the results depend on the processing

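No paired analysis was possible because the genotypes share no replicate number. Over 17 alternatives, 0 member probe sets passed an adjusted p of 0.05 in limma in any; the lowest adjusted p, 0.229, came with array quality weights. Among all probe sets, 6 passed with array quality weights and 0 to 2 with an array left out, the 2 without knockout 1; the counts at an unadjusted p under 0.05 were 2709 with the weights, 2190 with no filter and 664 to 1726 with an array left out. Quantile normalization turned Hbb-y to -0.024 on its brightest probe set and -0.039 on 1436717_x_at, Hbb-bh1 to -0.013, -0.021 and -0.056, the mean of the 3 embryonic globins to -0.072 and the heart muscle list to -0.098. Median centring turned Alas2 to 0.00071. Array quality weights turned Alas2 to 0.13, Hba-x to 0.019 and the epicardial list to -0.059. The macrophage list was at 0.089 with no filter, where more of its genes enter, and -0.23 with the filter at the 70th percentile, where fewer do. The causes of the other shifts were not tested. With single arrays left out, log2 differences ran from -0.19 to 0.12 in Hba-x, -0.0076 to 0.26 in Hbb-bh1 (its other probe sets -0.040 to 0.25 and -0.054 to 0.20), -0.53 to 0.42 in Alas2, -0.35 to 0.57 in Klf1, -0.46 to 0.037 in Hemgn, -0.083 to 0.26 in Epor, and -0.81 to 0.35 and -0.54 to 0.074 on the 2 probe sets of Slc4a1. List medians ran from -0.19 to 0.20 for haem synthesis, -0.18 to 0.15 for red cell enzymes, -0.14 to 0.059 for iron, -0.10 to 0.15 for membrane and skeleton, -0.035 to 0.19 for erythroid transcription factors, -0.058 to 0.026 for endothelium and -0.0065 to 0.063 for epicardium. Hbb-y, at 0.20 to 0.35, and Gata1, at 0.022 to 0.34, kept their direction with any array left out.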
